A study of Mus musculus with 56 samples.

Results

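The comparison described here set mice fed in the light period, 4 h after lights and food came on together, against mice of the same regimen at the moment of lights-on. Both groups were female C57BL/6J mice, 9 weeks of age in the labels, kept under 12 h of light and 12 h of dark and fed on the day time-restricted feeding (DRF) regimen for 7 days. Under DRF, food was available from zeitgeber time 0 (ZT0, lights on) to ZT12 (lights off). The 4 mice at ZT0 had therefore been without food through the 12 h of dark, and the 4 mice at ZT4 had had 4 h of light together with 4 h of food. These 8 mice, chosen by their regimen and time labels, are 8 of the 56 in the series, which holds 7 time points 4 h apart on DRF and on night time-restricted feeding (NRF, food from ZT12 to ZT0). Light and food began together in DRF, so their shares in a difference cannot be told apart within these 8 mice. In NRF mice the same hours of light came without food, and those mice are used below for comparison. Each mouse gave 1 library of polyadenylated RNA from the dissected anterior hypothalamus, a block of tissue with many nuclei and cell types. In such bulk RNA, fewer cells of a type and less RNA per cell cannot be told apart.

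The anterior hypothalamus includes the suprachiasmatic nucleus, which holds the master circadian clock, the preoptic nuclei that regulate body temperature, and the paraventricular nucleus that drives the stress axis. Corticosterone, the glucocorticoid of mice, rises ahead of a daily meal and falls after it, and it acts on nearly every cell through the glucocorticoid receptor, which switches on a well known group of genes. Cytosolic heat-shock proteins are molecular chaperones induced by the factor HSF1, and their level in many tissues follows the daily wave of body temperature. Chaperones of the endoplasmic reticulum (ER) fold secreted and membrane proteins and are induced together by the unfolded protein response. The enzymes of cholesterol synthesis are controlled as a group by the sterol-sensing factor SREBP2.

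The deposited table was converted back to CPM, the reads of a gene per 1e6 reads of its library, with a normalized library size of 30432792 to 31967027 reads in the 8 mice. Correlations across genes between mice of the same group were 0.9949 to 0.9975 at ZT0 and 0.9973 to 0.9982 at ZT4. Each library was also compared with the mean of the 24 mice sampled at ZT0, ZT4 and ZT24 for a trend of its values with the GC content of the genes. The Spearman correlation with GC content was 0.221 to 0.363 in the ZT4 mice and -0.219 to 0.202 in the ZT0 mice. The groups did not overlap in this measure, and the trend's part in single differences was not tested, but counts with such trends removed from each library are given below. The tissue had the defining transcripts of the anterior hypothalamus. The summed level of 9 preoptic and anterior hypothalamic markers was 608.4 to 860.9 CPM at ZT0 and 726.6 to 826.7 CPM at ZT4. Summed levels of 6 cortical markers were far lower and did not overlap, with 14.82 to 22.21 CPM at ZT0 and 24.55 to 53.36 CPM at ZT4. Those of other regions were not so low. For 7 striatal markers they were 331.8 to 454.2 CPM at ZT0 and 336.1 to 424.2 CPM at ZT4. For 6 thalamic markers they were 391.3 to 503.7 CPM at ZT0 and 394.4 to 613.9 CPM at ZT4. The amount of neighbouring tissue in each block was not tested.

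Differences were tested with limma on log2(CPM + 1), the logarithm of CPM with 1 added, and p-values were adjusted by the Benjamini-Hochberg method over the 16239 genes tested. A difference on this scale understates the fold change of genes with a few CPM. At an adjusted p under 0.05, 2220 genes (13.7% of those tested) differed between ZT4 and ZT0 in DRF mice, 1179 of them higher at ZT4 (7.26%) and 1041 lower (6.41%). Most differences were small. The median size over the called genes was 0.22 on the log2 scale, and 88 exceeded 0.5. For 1818 of the called genes the 4 values at ZT4 lay wholly above or wholly below the 4 at ZT0, as they did for 17.5% of all genes tested (9.27% higher and 8.2% lower). The count was 1178 without mouse 3 of ZT0, 1471 without mouse 3 of ZT4 and 1143 without mouse 4 of ZT4, and it was 1001 when all 56 mice shared the estimate of spread. With the trends of each library with gene length, GC content and level removed, 1837 genes were called, of which 1428 were among the 2220.

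**Figure D1:**
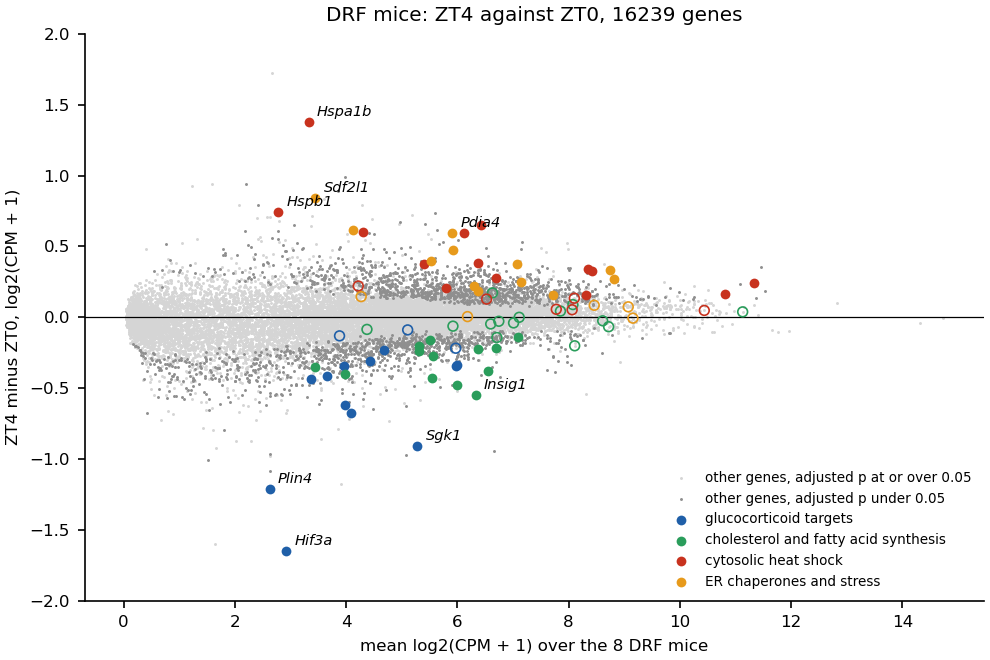
Difference between ZT4 and ZT0 in DRF mice (vertical axis, log2(CPM + 1)) against the mean level over the 8 mice (horizontal axis, log2(CPM + 1)) for the 16239 genes tested. Coloured points are members of 4 gene lists, filled where the adjusted p was under 0.05, and glucocorticoid targets lie below 0 while cytosolic heat-shock genes lie above 0.

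Glucocorticoid-responsive transcripts held the largest falls. Of 15 classic targets of the glucocorticoid receptor, 12 were lower at ZT4 at the threshold (6.41% of all genes were), none was higher, and all 15 differences were below 0. Their median difference was -0.35, where the median of all genes tested was -1.05e-05. This list and those below were chosen with earlier results of these data known, so their counts are a description. Hif3a, which encodes a hypoxia-inducible factor subunit known to respond to glucocorticoids, fell the most of the genes called (NCBI Gene 53417, GRCm38 chromosome 7, 17031507 to 17062427). Its level was 14.5, 10.5, 11.6 and 13.4 CPM in the ZT0 mice and 3.06, 3.60, 3.26 and 3.21 CPM in the ZT4 mice. The 4 ZT4 mice thus lay within a narrow range, well under the lowest ZT0 mouse. The mean was 3.82-fold lower at ZT4, and the difference on the log2 scale was -1.65 (SE 0.18, adjusted p = 1.9e-05). Plin4, a coat protein of lipid droplets, had 7.94, 8.86, 8.04 and 8.83 CPM at ZT0 and 3.12, 2.79, 2.77 and 3.60 CPM at ZT4. This fall was 2.74-fold in the mean, or -1.21 on the log2 scale (SE 0.23, adjusted p = 0.002).

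Sgk1, a kinase that regulates ion transport and one of the best known glucocorticoid targets, had 45.5, 65.4, 43.9 and 56.7 CPM at ZT0. At ZT4 it had 26.2, 26.9, 26.9 and 29.3 CPM. The ZT4 mice lay close together and under every ZT0 mouse, and the difference was -0.91 (SE 0.16, adjusted p = 0.0011). Zbtb16, the transcription factor PLZF, fell by 0.67 on the log2 scale (SE 0.15, adjusted p = 0.0054), and the phenol sulfotransferase Sult1a1 by 0.62 (SE 0.14, adjusted p = 0.0048). Arrdc2, an arrestin-domain protein, went from 11.1 ± 0.973 CPM (SD, n = 4) to 7.93 ± 0.597 CPM, a fall of 0.44 (adjusted p = 0.0021). Smaller falls were found in Cdkn1a, an inhibitor of cell-cycle kinases (-0.41, adjusted p = 0.018), in Nfkbia, an inhibitor of NF-kappa-B (-0.35, adjusted p = 0.0055), and in Tsc22d3, the leucine-zipper protein GILZ (-0.34, adjusted p = 0.0087). The mTORC1 inhibitor Ddit4 differed by -0.31 (adjusted p = 0.036) and Fkbp5, a co-chaperone of the receptor itself, by -0.23 (adjusted p = 0.027). The clock gene Per1, also on the list, is described with the clock genes. The members that missed the threshold were Klf9 at -0.22 (adjusted p = 0.076), Dusp1 at -0.13 (adjusted p = 0.30) and Errfi1 at -0.09 (adjusted p = 0.49).

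The palindrome bound by the glucocorticoid receptor, AGAACA and TGTTCT separated by any 3 bases, was searched for in the RefSeq promoters of GRCm38.p6, each from 250 bases before to 50 bases after an annotated start site, on both strands. The promoters of a single chromosome were left out of the set. The palindrome occurred in 3 of 32851 promoters (0.009%), or 3 of 27025 genes (0.0111%) when any promoter of a gene counted. Among the 14 listed targets with a promoter in that set, Sgk1 alone had a match, in 1 of its 6 annotated promoters. That promoter is shown because its gene is among the clearest falls, with the palindrome in capitals (plus strand, chr10:21993640-21993939):
Sgk1: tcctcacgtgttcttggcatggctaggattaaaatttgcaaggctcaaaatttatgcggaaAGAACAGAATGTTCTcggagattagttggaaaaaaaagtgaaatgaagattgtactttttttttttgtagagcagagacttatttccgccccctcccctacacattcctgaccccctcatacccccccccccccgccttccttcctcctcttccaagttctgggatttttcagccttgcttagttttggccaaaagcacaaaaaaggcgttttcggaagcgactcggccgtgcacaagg
A match of letters is a description and not evidence of binding, and the absence of these letters from the other windows says nothing about the receptor there.

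Metallothioneins are small proteins that bind zinc and copper and are induced by both metals and glucocorticoids. Of 6 genes of metallothioneins and zinc transport, 3 were lower (6.41% of all genes were) and none higher, with clear falls in Mt2 and in the zinc exporter of the plasma membrane. Mt2 had 144, 113, 144 and 161 CPM at ZT0 and 62.9, 91.9, 65.9 and 70.6 CPM at ZT4. All ZT4 mice were below all ZT0 mice, and the difference was -0.95 (SE 0.13, adjusted p = 0.00019). Slc30a1, the exporter, went from 39.9 ± 2.32 to 29.7 ± 0.905 CPM, a difference of -0.41 (SE 0.06, adjusted p = 0.00044). For Mt1 the groups overlapped and the difference of -0.31 was barely past the threshold (adjusted p = 0.049). It was 0.01 against the mice at ZT24, so Mt1 had no stable direction. Mt3, the brain form of metallothionein, differed by 0.20 (adjusted p = 0.33).

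Hr, the hairless corepressor and a known target of thyroid hormone in the brain, had 56.0, 42.3, 42.2 and 44.6 CPM at ZT0 and 22.1, 22.5, 23.6 and 23.7 CPM at ZT4. Its mean fell 2.01-fold, with no overlap (-0.97, SE 0.13, adjusted p = 0.00017). Of the 7 genes of thyroid hormone conversion, transport and response, Slco1c1, the thyroxine transporter of the blood-brain barrier, rose by 0.23 (SE 0.06, adjusted p = 0.023), a call that was lost in 4 of the 8 fits that left out a single mouse. The activating deiodinase Dio2 differed by -0.43 and missed the threshold (adjusted p = 0.11).

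Transcripts of cholesterol synthesis were lower after 4 h of food and light. Of 27 genes of cholesterol and fatty acid synthesis, 13 fell (6.41% of all genes did), none rose, and 23 differences were below 0, with a median of -0.14. Insig1, which holds the SREBP complex back in the ER when sterols are plentiful and is itself an SREBP target, had 95.4, 100.4, 96.7 and 93.2 CPM at ZT0. At ZT4 it had 61.7, 64.5, 72.8 and 63.9 CPM, each of them under every ZT0 value. This was a difference of -0.55 (SE 0.08, adjusted p = 0.00042). Idi1, an isomerase of the isoprenoid steps, differed by -0.48 (SE 0.09, adjusted p = 0.0023). Other falls within the sterol branch included Mvd at -0.40, Lss at -0.28, Nsdhl at -0.24, Sqle at -0.22, Msmo1 at -0.21, Dhcr7 at -0.16, Fdft1 at -0.14, and Stard4, a sterol carrier, at -0.20. On the fatty acid side only Acacb, the mitochondrial acetyl-CoA carboxylase, passed the threshold (-0.35, adjusted p = 0.0063). Fasn, Acaca, Scd1, Scd2, Acly and Elovl6 had differences between -0.07 and 0.17 and were not called. Srebf2, which encodes SREBP2, differed by 0.04 (adjusted p = 0.60). A sterol response element, a run of 10 letters searched on both strands, was found in 30 of 32851 promoters (0.091%), or 27 of 27025 genes (0.0999%). None of the 18 listed genes with a promoter in the set had it, which says only that these exact letters were not in those windows.

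**Figure D2:**
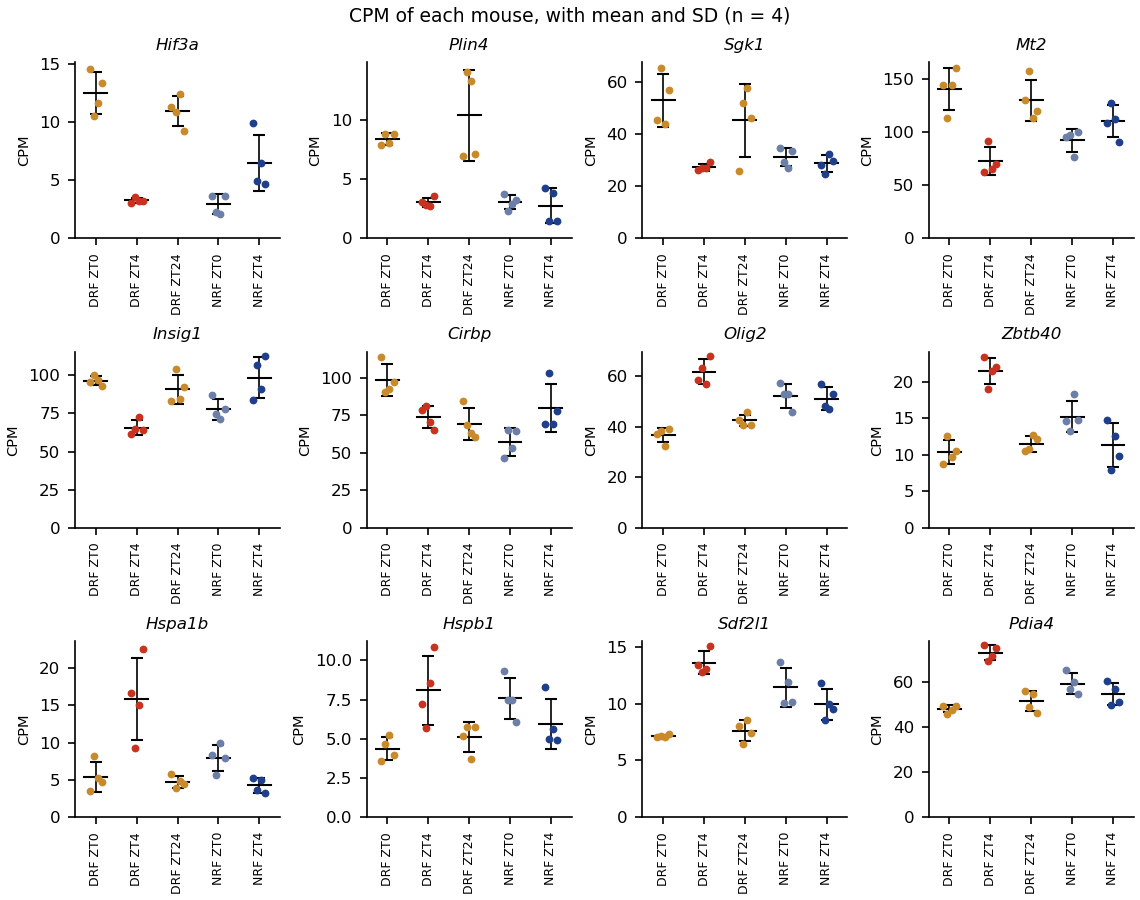
CPM of each mouse (points) for 12 genes in DRF mice at ZT0, ZT4 and ZT24 and in NRF mice at ZT0 and ZT4, with mean and SD (n = 4 mice). The ZT4 mice of DRF lie under all DRF ZT0 mice for Hif3a, Plin4, Sgk1, Mt2, Insig1 and Cirbp and over them for Olig2, Zbtb40, Hspa1b, Hspb1, Sdf2l1 and Pdia4.

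Cytosolic heat-shock transcripts were higher at ZT4. Of 20 such genes, 14 rose (7.26% of all genes did), none fell, and all 20 differences were above 0, with a median of 0.26. Hspa1b, the stress-inducible member of the HSP70 family, rose the most of the genes called (NCBI Gene 15511, chromosome 17, 34956436 to 34959238). It had 3.58, 8.18, 5.25 and 4.69 CPM at ZT0 and 16.6, 9.30, 15.03 and 22.6 CPM at ZT4. The lowest ZT4 mouse was close to the highest ZT0 mouse, yet without overlap. The mean rose 2.92-fold (1.38 on the log2 scale, SE 0.21, adjusted p = 0.00039). Reads of Hspa1b can be split with its near-identical neighbour Hspa1a, which differed by 0.60 (adjusted p = 0.0036), so the size of each is uncertain. The small heat-shock protein Hspb1 had 3.60, 4.68, 5.22 and 3.95 CPM at ZT0 and 7.23, 5.71, 8.57 and 10.9 CPM at ZT4 (0.74, SE 0.16, adjusted p = 0.0049). Cryab, alpha-B crystallin, a small heat-shock protein of oligodendrocytes and astrocytes, went from 68.3 ± 9.12 to 108 ± 11.3 CPM (0.65, SE 0.10, adjusted p = 0.00042).

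Chordc1, a co-chaperone of HSP90, had 44.7, 62.8, 55.9 and 61.5 CPM at ZT0. The ZT4 mice had 79.3, 76.7, 90.5 and 94.0 CPM, all higher, for a difference of 0.60 (SE 0.11, adjusted p = 0.0012). Hsf1, which encodes the heat-shock factor itself, rose by 0.37 (SE 0.07, adjusted p = 0.0014). Other members rose by less. They were Dnajb1 (0.38), Stip1 (0.34), Hsph1 (0.33), Ahsa1 (0.27), the abundant Hspa8 (0.24), the mitochondrial Hspe1 (0.21), Hsp90ab1 (0.17) and Dnaja1 (0.16). The 6 that missed the threshold, Bag3, Hspa4l, Dnajb4, Hspd1, Hspa4 and Hsp90aa1, had differences between 0.05 and 0.22. Serpinh1, the collagen chaperone HSP47 of the ER, is a known HSF1 target outside this list, and it is named for the difference of its change between the regimens. It had 16.2, 16.4, 20.8 and 17.1 CPM at ZT0 and 28.2, 25.1, 27.3 and 27.0 CPM at ZT4 (0.59, SE 0.07, adjusted p = 3.8e-05).

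The heat-shock element was searched for as GAA, TTC and GAA in a row with any 2 bases between each, on both strands, so that matches may overlap. It was found in 198 of 32851 promoters (0.603%), or 179 of 27025 genes (0.662%) when any promoter of a gene counted. Of the 15 heat-shock genes with a promoter in the set, 4 had a match, Chordc1, Hspd1, Hspe1 and Hsph1. Hspd1 and Hspe1 share their promoter region head to head. The promoter of Chordc1 is shown because it carries 3 overlapping matches, given in capitals as a single run next to the start site (plus strand, chr9:18292017-18292316):
Chordc1: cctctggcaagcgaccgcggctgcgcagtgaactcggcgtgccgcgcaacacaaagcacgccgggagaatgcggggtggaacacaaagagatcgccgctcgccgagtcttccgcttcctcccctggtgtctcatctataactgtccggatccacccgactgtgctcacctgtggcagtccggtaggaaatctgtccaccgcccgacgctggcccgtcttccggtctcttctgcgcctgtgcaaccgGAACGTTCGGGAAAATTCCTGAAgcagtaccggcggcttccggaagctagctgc
Of the 4 genes, 3 were among the 14 that rose, and Hspd1 differed by 0.06 (adjusted p = 0.46). With or without a match, 14 of the 20 listed genes rose. The list was chosen as heat-shock genes, so the share of members with a match is not independent of that choice.

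Cirbp and Rbm3 encode RNA-binding proteins that rise when temperature falls. Cirbp had 114.1, 90.8, 92.8 and 97.1 CPM at ZT0 and 78.9, 81.1, 70.7 and 65.5 CPM at ZT4, a difference of -0.41 (SE 0.12, adjusted p = 0.028). Rbm3 differed by -0.26 and was not called (adjusted p = 0.23). DRF mice sampled at the same clock time as the ZT0 mice but labelled ZT24 had Cirbp at 69.2 ± 10.8 CPM, lower than the ZT0 mice (-0.51, adjusted p = 0.032), and Rbm3 was lower in them as well (-0.82, adjusted p = 0.0071). Against the ZT24 mice the difference at ZT4 was 0.10 for Cirbp, which was not called, and 0.56 for Rbm3, which was.

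ER chaperones rose as well. Of 17 genes, 12 were higher at ZT4 (7.26% of all genes were) and none lower, and the median difference was 0.25. Sdf2l1, a component of the ER chaperone network, had 7.04, 7.16, 7.04 and 7.29 CPM at ZT0 and 13.4, 12.8, 13.1 and 15.04 CPM at ZT4. It rose 1.9-fold with hardly any spread among the ZT0 mice (0.84, SE 0.09, adjusted p = 1.9e-05). Pdia4, a protein disulfide isomerase, had 49.4, 45.9, 47.6 and 49.1 CPM at ZT0 and 76.4, 69.2, 71.4 and 74.7 CPM at ZT4 (0.59, SE 0.06, adjusted p = 8.7e-06). Creld2, an ER-resident factor induced by unfolded proteins, had 13.02, 13.4, 13.5 and 12.6 CPM at ZT0 and 20.3, 22.2, 19.2 and 20.7 CPM at ZT4 (0.61, SE 0.08, adjusted p = 0.00013). In each of these genes the ZT4 mice were well clear of the ZT0 mice. Manf, a secreted ER stress factor that supports neurons, rose by 0.47 (SE 0.06, adjusted p = 0.00012). Dnajb11, a cofactor of BiP, rose by 0.40, the transcription factor Xbp1 by 0.38 and Hspa5, BiP itself, by 0.34. Smaller rises were found in Calr (0.27), Pdia6 (0.25), Herpud1 (0.22), Dnajc3 (0.19) and Hyou1 (0.16). Canx, Dnajb9, Hsp90b1, Pdia3 and Ddit3, the pro-apoptotic factor CHOP, lay between -0.01 and 0.15 and were not called.

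The ER stress response element was searched for as CCAAT and CCACG separated by any 9 bases, on both strands. It occurred in 39 of 32851 promoters (0.119%), or 37 of 27025 genes (0.137%) when any promoter of a gene counted. Of the 15 listed ER genes with a promoter in the set, 7 had a match, namely Calr, Canx, Creld2, Dnajc3, Hsp90b1, Hspa5 and Pdia6. Of these, 5 were among the 12 that rose, while Canx and Hsp90b1 were not called. With or without a match, 12 of the 17 listed genes rose. The promoters of Hspa5, the master chaperone, and of Creld2, which rose more, are shown with the element in capitals (both on the plus strand, chr2:34771840-34772139 and chr15:88819396-88819695, and in Creld2 the element reads on the opposite strand):
Hspa5: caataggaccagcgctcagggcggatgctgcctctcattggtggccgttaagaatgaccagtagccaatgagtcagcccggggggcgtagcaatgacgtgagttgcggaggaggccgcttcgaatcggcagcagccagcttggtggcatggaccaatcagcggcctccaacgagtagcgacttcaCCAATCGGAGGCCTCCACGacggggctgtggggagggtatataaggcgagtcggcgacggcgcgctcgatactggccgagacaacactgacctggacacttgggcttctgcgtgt
Creld2: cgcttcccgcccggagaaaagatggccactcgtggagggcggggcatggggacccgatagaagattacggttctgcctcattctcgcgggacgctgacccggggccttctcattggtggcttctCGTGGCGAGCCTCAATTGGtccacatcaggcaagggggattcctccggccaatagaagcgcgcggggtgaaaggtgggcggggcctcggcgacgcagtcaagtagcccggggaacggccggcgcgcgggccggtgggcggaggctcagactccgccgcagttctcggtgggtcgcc
The list was chosen as known targets of the unfolded protein response, whose element was in part defined on such promoters, so the share of members with a match is not independent of that choice.

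Several of the largest differences lay outside these groups. Cdc42ep1, an effector of the small GTPase CDC42, had the smallest p-value of the named genes, with 23.9, 25.2, 22.2 and 24.6 CPM at ZT0 and 38.9, 37.8, 38.0 and 40.2 CPM at ZT4 (0.67, SE 0.06, adjusted p = 1.6e-06). Olig2, the lineage factor of oligodendrocytes, had 37.1, 38.2, 32.5 and 38.9 CPM at ZT0 and 58.5, 63.2, 56.9 and 67.8 CPM at ZT4 (0.73, SE 0.07, adjusted p = 2.6e-06). The ZT4 values of both genes were all higher than any ZT0 value. The lineage's other transcripts moved less. Of 9 markers of mature oligodendrocytes, Mbp (0.35, adjusted p = 0.03) and Ermn (0.55, adjusted p = 0.0096) rose and 7 were not called. Of 5 precursor markers, 2 were lower and none higher. Over all genes, 7.26% were called higher and 6.41% lower. The part of cell number in the rise of Olig2 was not tested.

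Zbtb40, a zinc-finger protein, had 8.68, 12.5, 9.70 and 10.5 CPM at ZT0 and 23.3, 19.0, 21.5 and 22.01 CPM at ZT4. That 2.07-fold rise was 0.99 on the log2 scale (SE 0.13, adjusted p = 0.00012). Etv5, an ETS-family factor induced by growth-factor signalling, rose by 0.66 (SE 0.08, adjusted p = 2.2e-05), and the endothelial factor Sox18 by 0.65 (SE 0.15, adjusted p = 0.0067). Of 9 endothelial and pericyte markers, Cldn5 (0.42) and Flt1 (0.30) were called higher (7.26% of all genes were) and none lower. Of the 9 differences, 5 were above 0 and 4 below, with a median of 0.02. Also higher was Bfsp2, a filament protein best known from the lens, with a rise of 0.79 (SE 0.14, adjusted p = 0.00096). Mab21l1, a developmental gene, rose by 0.94 (adjusted p = 0.0026), and Tbr1, a factor of cortical projection neurons, by 0.89 (adjusted p = 0.0088). Neither held against the mice at ZT24. Tbr1 had 8.26, 14.9, 6.35 and 11.1 CPM at ZT0 and 17.9 ± 5.27 CPM (SD, n = 4) at ZT24. The differences between ZT4 and ZT24 were 0.11 for Tbr1 and 0.38 for Mab21l1, neither of them called. The cortical marker Slc17a7, the vesicular glutamate transporter, differed by 1.72 and was not called (adjusted p = 0.066). The part of tissue next to the dissected block in these differences was not tested.

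Among the other falls, Txnip, an inhibitor of thioredoxin and of glucose uptake, had 31.6, 19.4, 30.9 and 27.2 CPM at ZT0 and 18.01, 16.4, 16 and 16.8 CPM at ZT4 (-0.64, SE 0.15, adjusted p = 0.0072). Txnip and Insr, the insulin receptor (-0.17, adjusted p = 0.0028), were the only called members of 16 genes of insulin signalling and the FOXO fasting response. Armcx5, an armadillo-repeat protein of the X chromosome, fell by 0.62 (SE 0.11, adjusted p = 0.00084). Prodh, the proline-degrading enzyme, fell by 0.37 (SE 0.08, adjusted p = 0.0059), and the branched-chain aminotransferase Bcat2 rose by 0.41 (adjusted p = 0.0016). Of 20 genes of amino acid breakdown, 2 rose and 1 fell. This list and that of insulin signalling and FOXO were near the 13.7% of all genes called in either direction. Srsf5, a splicing regulator, fell by 0.37 (SE 0.06, adjusted p = 0.00099). Cyp1b1 (-0.79, adjusted p = 0.014), Lrrc29 (-0.65, adjusted p = 0.010) and Plac9b (-0.97, adjusted p = 0.025) were scarce transcripts, with means of at most 7.87 CPM. Against the mice at ZT24 none of these 3 was called, and Lrrc29 differed by -0.25 (adjusted p = 0.32). Cyp1b1 at ZT0 rested on a mouse at 7.38 CPM beside 3 mice at 2.54 to 3.15 CPM. Plac9b has a near-identical copy, Plac9a, with which reads may be shared.

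Most clock genes were not called over these 4 h, but several repressors were. Of 10 repressors, Nr1d1 rose and Per1, Cry2 and Ciart fell, where 7.26% of all genes were called higher and 6.41% lower. Nr1d1, the nuclear receptor REV-ERB-alpha that represses Arntl, had 93.5, 90.9, 82.8 and 83.7 CPM at ZT0 and 106.6, 112.5, 108.3 and 118.2 CPM at ZT4. The groups did not overlap (0.34, SE 0.06, adjusted p = 0.00069). Per1, which responds to both light and glucocorticoids, had 71.4, 73.2, 73.4 and 63.0 CPM at ZT0 and 57.4, 46.7, 55.4 and 61.7 CPM at ZT4 (-0.34, SE 0.10, adjusted p = 0.025). Ciart, the repressor CHRONO, differed by -0.35 (adjusted p = 0.018) with overlap between the groups, and Cry2 by -0.14 (adjusted p = 0.025). Per2 differed by -0.07 (adjusted p = 0.55), Per3 by -0.13 (adjusted p = 0.051) and Cry1 by -0.22 (adjusted p = 0.067). Bhlhe40, Bhlhe41 and Nr1d2 lay within 0.03 to 0.07. None of the 7 activators and Nfil3 was called. Arntl, the partner of CLOCK, differed by 0.12 (adjusted p = 0.14), and Clock, Npas2, Rora, Rorb and Nfil3 lay between -0.05 and 0.18. Of 6 output genes only Nampt, the rate-limiting enzyme of NAD salvage, was called (-0.13, adjusted p = 0.032). Dbp differed by -0.12 (adjusted p = 0.31), and Tef, Hlf, Usp2 and Wee1 lay between -0.06 and 0.11. The calls of Per1, Cry2, Ciart and Nampt were each lost in at least 3 of the 8 fits that left out a single mouse.

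**Figure D3:**
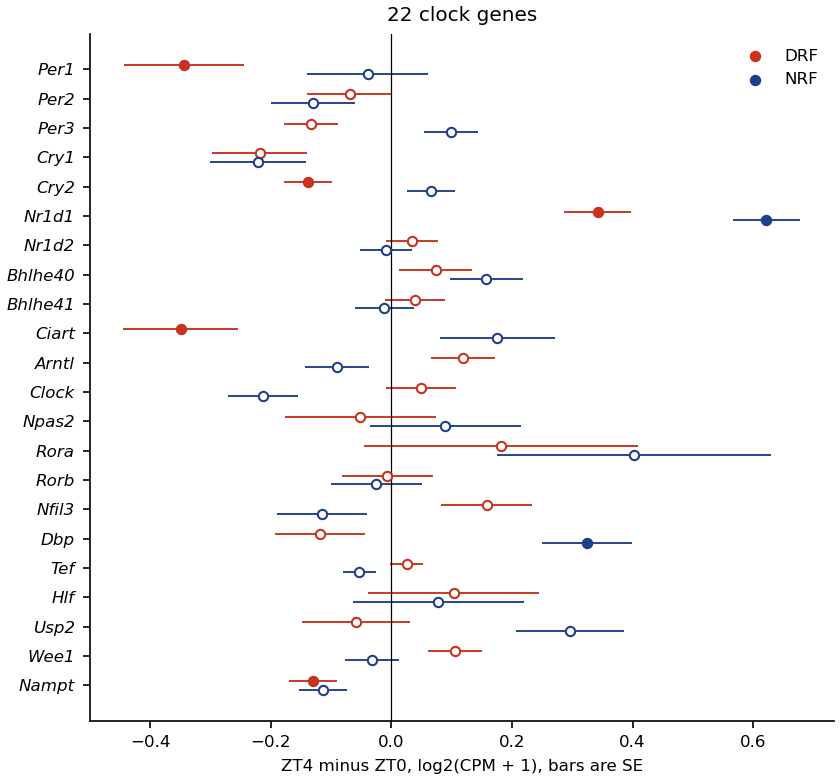
Difference between ZT4 and ZT0 on the log2(CPM + 1) scale (horizontal axis, bars are SE) for 22 clock genes in DRF (red) and NRF (blue) mice, filled where the adjusted p was under 0.05. Nr1d1 rose in both regimens, and Dbp was called in NRF alone.

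Other gene groups of the tissue showed few calls or none. Of 20 immediate early genes of neuronal activity, Btg2 alone was called (-0.36, adjusted p = 0.026), and it differed by 0.08 against the ZT24 mice. Fos differed by -0.79 with an adjusted p of 0.089 and Nr4a1 by -0.50 with an adjusted p of 0.053. None of 12 suprachiasmatic peptides and factors, 14 paraventricular and neuroendocrine peptides and 15 feeding peptides and receptors passed the threshold. Their median differences were -0.01, -0.05 and -0.19. The hunger peptides Agrp (-0.98, adjusted p = 0.12) and Npy (-0.58, adjusted p = 0.23) and their opponent Pomc (-0.50, adjusted p = 0.36) were low in the same direction. They are made in the arcuate nucleus, which lies behind the anterior hypothalamus, and the summed level of 6 arcuate markers ranged from 65.31 to 169.7 CPM in the ZT0 mice and from 67.96 to 111.1 CPM in the ZT4 mice. None of 80 cytosolic ribosomal protein genes was called (median 0.00). Of 93 respiratory chain and ATP synthase genes, 7 rose and none fell (median 0.07), and of 38 proteasome subunits 4 rose (median 0.01). For comparison, 7.26% of all genes were called higher and 6.41% lower. The largest difference of a called respiratory gene was that of Cox6a1 at 0.26 (adjusted p = 0.015). Among 19 genes of the ATF4 amino acid response, Slc7a5, a transporter of large neutral amino acids, was the only call (-0.19, adjusted p = 0.021), and among 19 genes of ketone use and fatty acid oxidation Cpt1a was (-0.17, adjusted p = 0.014). Wwc1 was the only call of 19 Hippo pathway genes (0.23, adjusted p = 0.0089), and of 11 SR splicing factors Srsf4 rose while Srsf5 and Srsf12 fell. No marker of astrocytes, ependyma, choroid plexus, striatum or thalamus was called. All 6 thalamic differences were above 0 (median 0.24), and 6 of 7 of ependyma and tanycytes were below 0 (median -0.40). The summed level of 6 blood-cell markers, mostly globins, was 340.9 to 957 CPM at ZT0 and 490.6 to 2381 CPM at ZT4, with none of the 6 called.

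In NRF mice, the first 4 h of light began a fast instead of ending one, and the same test called 117 genes (0.72%), 51 higher (0.314%) and 66 lower (0.406%). That count moved widely when a single mouse was left out. Without mice 1 to 4 of NRF ZT0 it was 5, 41, 2 and 41, and without mice 1 to 4 of NRF ZT4 it was 236, 4, 45 and 10. The difference between the regimens was therefore tested itself, as the change in DRF minus the change in NRF. It passed the threshold for 1473 genes (9.07%), higher in DRF for 854 (5.26%) and lower for 619 (3.81%). Without mouse 3 of NRF ZT0 the count was 953, and with all 56 mice sharing the spread it was 819.

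The groups described above differed in this respect. Over all genes, the change in DRF was called higher for 5.26% and lower for 3.81%. In NRF, 8121 of all differences were above 0 and 8118 below. Of the 20 cytosolic heat-shock genes, 17 had a higher change in DRF, and in NRF all 20 differences were below 0 (median -0.19). Of the 17 ER chaperone genes, 12 had a higher change in DRF, and in NRF 15 lay below 0 (median -0.07). Of the 27 lipid synthesis genes, 13 had a lower change in DRF and 1 a higher one, and in NRF 23 lay above 0 (median 0.09). Of the 15 glucocorticoid targets, 6 had a lower change in DRF, and their median in NRF was -0.04. DRF and NRF mice were compared through their own ZT0 mice, and those differed at the start. Hif3a was at 12.5 ± 1.79 CPM in DRF and 2.93 ± 0.856 CPM in NRF at ZT0, and at 3.28 ± 0.229 and 6.49 ± 2.43 CPM at ZT4. The change of Hif3a was thus opposite in direction, with -1.65 in DRF and 0.90 in NRF (adjusted p = 0.032), and the regimens differed by -2.56 (SE 0.26, adjusted p = 1.4e-05). Hr behaved alike, with 26.6 ± 4.43 CPM at ZT0 and 39.99 ± 6.76 CPM at ZT4 in NRF, and the regimens differed by -1.54 (SE 0.19, adjusted p = 6.7e-05). For Hspa1b the NRF means were 7.98 ± 1.74 and 4.29 ± 1 CPM, and the regimens differed by 2.14 (SE 0.30, adjusted p = 0.00021). For Insig1 they were 77.6 ± 6.81 and 98.5 ± 13.4 CPM, and the regimens differed by -0.88 (SE 0.12, adjusted p = 0.00016). Sgk1 was at 31.1 ± 3.45 and 28.7 ± 3.11 CPM in NRF, close to the DRF level at ZT4, and the regimens differed by -0.80 (SE 0.23, adjusted p = 0.028). For Plin4 the difference between regimens missed the threshold (-1.03, adjusted p = 0.053).

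Serpinh1, Hexim1 and Accs were also among the genes with the smallest p-values for a difference between regimens. Hexim1, an inhibitor of the transcription elongation factor P-TEFb, went from 66.4 ± 2.81 to 81.6 ± 1.13 CPM in DRF and from 75.3 ± 2.11 to 66.4 ± 3.43 CPM in NRF (difference of changes 0.47, adjusted p = 3.8e-05). Serpinh1 went from 24.7 ± 2.27 to 20.02 ± 1.32 CPM in NRF (0.87, adjusted p = 3.8e-05). Accs, an enzyme-like protein of the aminotransferase family, fell in DRF by 0.48 and rose in NRF by 0.31 (adjusted p = 0.035). The 6 genes with the smallest p-values in NRF itself were Nr1d1, Fxr1, Gpr146, Senp6 and 2 genes that the name tables leave without a symbol (NCBI Gene 102640444 and 105244832). Nr1d1 rose in both regimens, from 74.2 ± 5.68 to 114.5 ± 2.29 CPM in NRF (0.62, adjusted p = 1.4e-06), and the change in DRF was smaller by 0.28 (adjusted p = 0.027). Dbp rose in NRF by 0.32 (adjusted p = 0.046) and the regimens differed by -0.44 (adjusted p = 0.011).

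**Figure D4:**
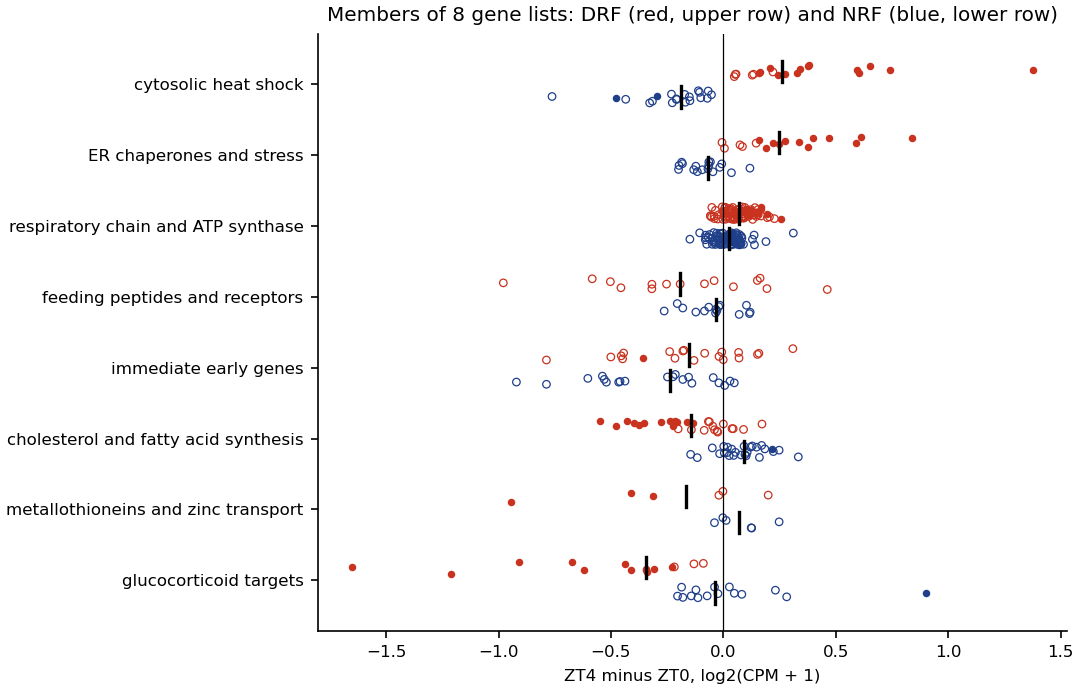
Difference between ZT4 and ZT0 (horizontal axis, log2(CPM + 1)) for each member of 8 gene lists in DRF (red) and NRF (blue) mice, filled where the adjusted p was under 0.05, with the median of the list as a black bar. Heat-shock genes lie above 0 in DRF and below 0 in NRF, and lipid synthesis genes show medians of -0.14 and 0.09.

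A second set of 4 DRF mice, sampled at ZT24, stood at the same clock time as the ZT0 mice, again at the end of the night fast. Between ZT24 and ZT0, 387 genes differed (2.38%), 225 higher at ZT24 (1.39%) and 162 lower (0.998%). Without mice 1 to 4 of ZT0 the count was 39, 667, 57 and 188, and without mice 1, 2 and 4 of ZT24 it was 867, 139 and 24. Between ZT4 and ZT24, 2177 genes were called (13.4%), 1144 higher at ZT4 (7.04%) and 1033 lower (6.36%). The count was 1439 without mouse 2 of ZT4, 1443 without mouse 4 of ZT4 and 1399 without mouse 2 of ZT24. This comparison and the one with ZT0 share the ZT4 mice, so their values are given side by side only. Hif3a differed by -1.65 against ZT0 and -1.48 against ZT24, Plin4 by -1.21 and -1.43, Mt2 by -0.95 and -0.84, and Sgk1 by -0.91 and -0.65. Insig1 differed by -0.55 and -0.46. Among the rises, Hspa1b differed by 1.38 and 1.5, Sdf2l1 by 0.84 and 0.76, Pdia4 by 0.59 and 0.50, and Olig2 by 0.73 and 0.53. All 9 passed the threshold against both sets. Of the 2220 genes called against ZT0, 941 were also called against ZT24. Many of the named genes were chosen for their difference between ZT4 and ZT0, so their share can differ from that of all genes. Of the 64 named genes called against ZT0, 42 were also called against ZT24 and 22 were not. Those not called against ZT24 included Sox18 (0.65 against ZT0 and 0.41 against ZT24), Armcx5 (-0.62 and -0.30), Per1 (-0.34 and -0.22), Ciart (-0.35 and -0.18), Slc7a5 (-0.19 and -0.08) and Wwc1 (0.23 and 0.07). Against ZT24, 10 of 15 glucocorticoid targets fell, 12 of 17 ER chaperones rose, 5 of 27 lipid synthesis genes fell, and 8 of 20 heat-shock genes rose while Hspa4 fell (-0.12). Higher too were 16 of 38 proteasome subunits, 13 of 80 cytosolic ribosomal protein genes and 12 of 93 respiratory genes, with medians of 0.13, 0.12 and 0.10 and none lower. Of the 6 blood-cell markers, 5 were higher at ZT4 than at ZT24, as were the neuropeptide genes Avp (0.88) and Oxt (0.51) among 9 preoptic and anterior hypothalamic markers, and their part in these values was not tested. Chordc1, with 72.7 ± 4.12 CPM at ZT24, differed by 0.22 against those mice and was not called (adjusted p = 0.17).

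Mice of the same clock time also differed in NRF. There, 1871 genes (11.5%) differed between ZT24 and ZT0, 1038 higher (6.39%) and 833 lower (5.13%). The count was 910 without mouse 1 of ZT0, 828 without mouse 2 of ZT0, 866 without mouse 3 of ZT24 and 879 without mouse 4 of ZT24. The NRF ZT24 libraries had a Spearman correlation with GC content of -0.456 to -0.195, where the NRF ZT0 libraries had -0.132 to 0.158. With library trends removed, 375 genes differed between these NRF groups and 1837 between ZT4 and ZT0 in DRF. Between ZT24 and ZT0 in DRF the same step moved the count up, from 387 to 560. The part of light and food in the smaller differences among the 2220 genes was not tested.

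Over the day, DRF mice at ZT4 stood at an extreme for many of the genes named. Many of these genes were chosen for their difference between ZT4 and ZT0, which favours such an extreme. The share over all genes was not counted, so the ranks are a description. Among the 7 DRF time points, ZT4 had the lowest mean for Hif3a, Plin4, Hr, Mt2, Sgk1, Zbtb16, Txnip, Insig1, Idi1 and Per1. It had the highest for Hspa1b, Zbtb40, Olig2, Cdc42ep1, Etv5 and Chordc1. Sdf2l1, Pdia4, Creld2 and Manf were higher only at ZT16. Some called genes were well inside the range, with ZT4 at rank 3 from the lowest for Btg2, 4 for Lrrc29 and Mt1 and 5 for Cirbp. In NRF mice the meal began at ZT12, and the group means of those mice at ZT16 and ZT12, which share no animal with the comparison above, were set beside it as a description, with no test. From ZT12 to ZT16 in NRF, all 20 heat-shock genes were higher (median 0.33), all 17 ER chaperones were higher (median 0.33), and 24 of 27 lipid synthesis genes were lower (median -0.15). Glucocorticoid targets were mixed, with 9 of 15 lower (median -0.12). Hif3a went from 22.2 ± 2.22 to 11.4 ± 1.18 CPM and Sgk1 from 102.5 ± 12.9 to 59.0 ± 16.9 CPM. Hspa1b went from 3.78 ± 0.825 to 17.8 ± 4.84 CPM, Sdf2l1 from 6.58 ± 0.981 to 13.9 ± 2.42 CPM, and Insig1 from 103 ± 12.7 to 73.8 ± 2.47 CPM. In DRF mice, whose food was removed at ZT12, 17 of 20 heat-shock genes and 13 of 17 ER chaperones were also higher at ZT16 than at ZT12 (medians 0.23 and 0.21). There 16 of 27 lipid synthesis genes were lower (median -0.02) and 4 of 15 glucocorticoid targets were (median 0.16). Plin4 and Hif3a differed from each other in this respect. From ZT12 to ZT16 Plin4 was higher by 0.39 in NRF and 1.73 in DRF, whereas Hif3a differed by -0.91 in NRF and 0.08 in DRF.

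**Figure D5:**
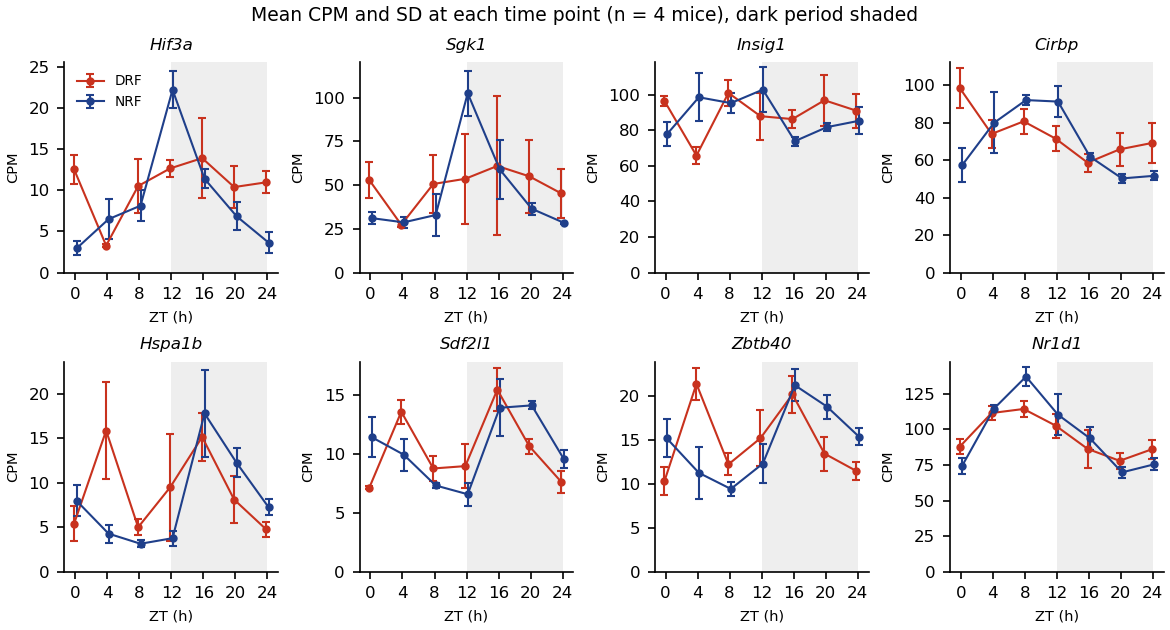
Mean CPM with SD (n = 4 mice) at each of the 7 time points for 8 genes in DRF (red) and NRF (blue) mice, with the dark period shaded. Hif3a and Insig1 have their lowest DRF mean at ZT4, and Hspa1b has high means at ZT4 in DRF and at ZT16 in both regimens.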

How the data were processed

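Values for 17564 genes in 56 mice, listed by NCBI Gene ID, had been made by the authors with SOAPnuke, HISAT2, Bowtie2 and RSEM on GRCm38.p6 and TMM normalization in edgeR, and they were deposited as TPM. The deposited values behave as a score and not as TPM, being log2(TMM CPM + 1) divided by the length of the gene, with each mouse then scaled to nearly the same total. This was undone with gene lengths of GENCODE M21 or, where these gave no whole reads, with a length found by search. Whole reads resulted for 15280 genes, in which 99.86% of the lower values lay within 0.05 of a whole number. Genes entered that set, and searched lengths were picked, by giving whole reads in most mice, so this share is not a separate check. Of 843 searched lengths with an annotated length to compare, 97 lay within 1% of the nearest and 445 within 25%. The scale log2(CPM + 1) was usable for 17501 genes. The recovery of lengths and the model were tested on simulated data, where 61% of differences of 0.3 and 89% of 0.6 between ZT4 and ZT0 in DRF were called, with 3 false calls. The values for the model were drawn independently for each gene and mouse, without the library trends described above. The 3 false calls therefore do not give the rate of false calls in these data. The table carries no counts, so no count model was used.

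Genes were kept where 80% or more of the mice had a deposited value of 1 or above (16239). Group means of 24 mice in 6 groups (ZT0, ZT4 and ZT24 of each regimen) were fitted with limma 3.58.1 in R 4.3.3 (moderated variances with a trend on level), and p-values were adjusted by the Benjamini-Hochberg method. Named genes were the 12 largest rises and falls among called genes with a mean of at least 1 and no overlap of mice, up to 4 called members of each list by p-value, all clock genes, and the 6 smallest p-values for NRF and for the difference between regimens; other list members were named to account for their list. The comparison and the lists were chosen with earlier results of these data known. The ZT12 to ZT16 means were added after the values were seen. Numbers of mice did not pair them, since correlations of the deviations of same-numbered mice at ZT0 and ZT4 were 0.188, -0.201, 0.0838 and -0.0679 in DRF. The labels name no batch, and p-values measure the spread between the mice sampled. Gene names and promoters came from NCBI RefSeq tables, with 108 genes left without a symbol. Some list members and named genes are not reported here.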

Additional observations from a re-analysis of the deposited data

Results flagged for a closer look

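Differences between the regimens in the change from ZT0 to ZT4 were tested as a difference of changes (DRF minus NRF, log2 scale, limma). The threshold was passed by 9.07% of all genes tested and by 52 of the genes chosen by the naming rule. That rule picked many genes by their change in DRF or NRF or by this difference itself. The count of 52 therefore follows in part from the choice and is a list only. The change was higher in DRF for Hspa1b (2.14), Zbtb40 (1.41), Mab21l1 (1.19), Chordc1 (1.08), Hspb1 (1.06), Sdf2l1 (1.02), Tbr1 (0.97), Etv5 (0.87), Serpinh1 (0.87), Bfsp2 (0.81), Creld2 (0.80), Olig2 (0.76), Pdia4 (0.71), Cryab (0.70), Manf (0.60), Cdc42ep1 (0.55), Fxr1 (0.49), Hsf1 (0.48), Hexim1 (0.47), Bcat2 (0.42), Wwc1 (0.42), Slco1c1 (0.32), Clock (0.26), Senp6 (0.24), Psmd11 (0.19) and Psmd5 (0.16). It was lower in DRF for Hif3a (-2.56), Hr (-1.54), Mt2 (-1.19), Lrrc29 (-1.01), NCBI Gene 102640444 (-1), Zbtb16 (-0.96), Armcx5 (-0.90), Insig1 (-0.88), Cirbp (-0.88), Sgk1 (-0.80), Accs (-0.79), Arrdc2 (-0.67), NCBI Gene 105244832 (-0.67), Idi1 (-0.58), Slc30a1 (-0.54), Ciart (-0.53), Srsf5 (-0.53), Dbp (-0.44), Slc7a5 (-0.41), Prodh (-0.41), Gpr146 (-0.37), Cpt1a (-0.30), Nr1d1 (-0.28), Per3 (-0.23), Cry2 (-0.20) and Insr (-0.19). The adjusted p-values nearest the threshold were those of Psmd5 (0.041), Tbr1 (0.045) and Clock (0.047).

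A mouse stood far from the other 3 of its group, as a share of the group's range, in 7 of the 178 gene and group pairs checked, where chance flags about 1 in 20. At ZT0 these were mouse 1 for Lrrc29 (0.861, at 4.28 CPM, highest) and for Clock (0.879, at 82.1 CPM, lowest), mouse 3 for Per3 (0.848, highest), Cox6a1 (0.858, lowest) and Ndufaf5 (0.838, lowest), and mouse 4 for Usp2 (0.926, lowest). At ZT4 it was mouse 2 for Mt1 (0.832, at 269 CPM, highest).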

How the results depend on the processing

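The 2220 genes called between ZT4 and ZT0 in DRF numbered 1143 to 2484 with a single mouse left out, 1001 with all 56 mice, and 1533 to 3125 in the other settings, which were the mice compared only, log2 of the deposited values, a pseudocount of 0.1, no filter, a filter at a mean of 1 CPM, quantile normalization, median centring, robust variances, array weights and library trends removed. In NRF (117) the count was 2 to 236 with a mouse left out, 2 with the mice compared only, 6 with all 56 mice and 21 on the deposited scale, where 16 were higher and 5 lower, and with median centring 58 were higher and 43 lower, against 51 and 66. The difference between regimens (1473) gave 953 to 1779 with a mouse left out and 819 with all 56 mice. ZT24 against ZT0 in DRF (387) gave 24 to 867 with a mouse left out, 1 with the mice compared only (3531 genes had an unadjusted p under 0.05 in the shared fit), 76 with all 56 mice, 70 on the deposited scale, 82 with array weights and 560 with library trends removed. With median centring 348 were higher and 114 lower in that comparison, against 225 and 162. ZT4 against ZT24 (2177) gave 1399 to 2208 with a mouse left out, fewest without mouse 2 of ZT24, 1268 with the mice compared only, 639 with all 56 mice and 1212 with library trends removed. ZT24 against ZT0 in NRF (1871) gave 828 to 1682 with a mouse left out, 345 with all 56 mice, 375 with library trends removed and 2982 with array weights, and on the deposited scale 1747 were higher and 266 lower, against 1038 and 833. The cause of these shifts was not tested.

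The replicate numbers did not pair the mice. With the replicate number as a block, the counts were 2239, 93, 1453, 524, 2288 and 2130 in the same order. With the ZT24 mice in place of the ZT0 mice, 4 named genes called against ZT0 changed direction, Btg2 (0.0816), Mt1 (0.0092), Cirbp (0.1035) and Srsf12 (0.0573), and none of these differences was called. For named genes in DRF, 1736 repeats kept direction and side of the threshold, 165 lost the call, 17 gained it and 4 were those reversals. In 34 more, a gene that was called neither as reported nor under the setting changed sign. These were 11 genes, among them Per3, Dbp, Clock, Rora and Hlf with the ZT24 mice in place of the ZT0 mice. Calls were lost in fits without a single mouse for Mt1 (6 of 8), Btg2 (4), Cirbp and Plac9b (3 each), Cyp1b1, Cpt1a, Slc7a5, Cox6a1 and Srsf4 (2 each) and Srsf12 (1).

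With 4 mice a group, 61% of simulated differences of 0.3 were called, so a gene without a call is not shown to be unchanged. Normalized library sizes, which are not the sequencing depth itself, lay close together in the 8 mice (30432792 to 31967027 reads), and genes of a few CPM have the widest counting error.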
